A study of Mus musculus with 10 samples.

Results

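The genes described here are the receptors, co-receptors and ligands of vascular endothelial growth factor (VEGF). They were chosen by symbol, and all 9 are among the 23337 genes of the count table: the receptors Kdr, Flt1 and Flt4, the co-receptors Nrp1 and Nrp2, and the ligands Vegfa, Vegfb, Vegfc and Pgf. RNA was sequenced from embryoid bodies, clusters of mouse pluripotent stem cells left to differentiate, made from the iHA-Etv2 line. Adding doxycycline to that line induces an HA-tagged Etv2 gene, and Etv2 is the ETS-family regulator without which mouse embryos form neither blood nor vessels. The 10 libraries form 5 groups of 2 libraries each. These are doxycycline-treated and untreated embryoid bodies at day 2, Flk1-positive doxycycline-treated cells at day 2.5, and doxycycline-treated and untreated embryoid bodies at day 2.5. All 5 groups carry the inducible copy, the untreated ones included, and all libraries come from that line alone. The dose of doxycycline and the hour of its addition are not given in the labels. The groups other than the Flk1-positive one are labelled only as not Flk1-positive, which leaves unsaid whether they went through the sort at all. Nothing says that the 2 libraries of a group came from separate cultures, so the p-values cover no more than the spread of these libraries, which may be technical.

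VEGF ligands are secreted proteins that bind receptor tyrosine kinases on precursors of blood and endothelium and on endothelial cells. Kdr, whose protein is called Flk1 or VEGFR2, carries most of the growth and migration signal, Flt1 (VEGFR1) binds VEGF-A tightly and acts largely as a decoy, and Flt4 (VEGFR3) is the receptor of VEGF-C. Neuropilins are co-receptors that bind both VEGF and class 3 semaphorins. VEGF-A binds Kdr and Flt1, VEGF-B and placental growth factor bind Flt1, and VEGF-C binds Flt4. In the mouse embryo Kdr marks the mesoderm from which blood and endothelium arise. Kdr was also the marker of the sort in this study, so its values in the Flk1-positive libraries describe the sort and were not tested.

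The 250 bases before the annotated start of 2 receptor genes and of 2 ligand genes are shown because the induced factor belongs to the ETS family, whose members bind a core of GGAA. They come from RefSeq on build GRCm38.p6, all 4 genes lie on the minus strand, and each line reads 5′ to 3′ along the gene. Capitals mark GGAA or its reverse complement TTCC. The windows are chr5:75978456-75978705 for Kdr, chr5:147726012-147726261 for Flt1, chr17:46032378-46032627 for Vegfa and chr19:6987652-6987901 for Vegfb.
Kdr: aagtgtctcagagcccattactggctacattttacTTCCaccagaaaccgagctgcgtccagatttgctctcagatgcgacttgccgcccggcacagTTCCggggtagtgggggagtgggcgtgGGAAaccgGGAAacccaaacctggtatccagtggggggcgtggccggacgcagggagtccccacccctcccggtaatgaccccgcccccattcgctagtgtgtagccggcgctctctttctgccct
Flt1: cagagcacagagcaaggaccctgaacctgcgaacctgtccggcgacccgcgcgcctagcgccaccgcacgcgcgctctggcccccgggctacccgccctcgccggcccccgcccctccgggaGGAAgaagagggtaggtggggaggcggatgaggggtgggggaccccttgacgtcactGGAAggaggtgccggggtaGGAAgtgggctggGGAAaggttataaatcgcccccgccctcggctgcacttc
Vegfa: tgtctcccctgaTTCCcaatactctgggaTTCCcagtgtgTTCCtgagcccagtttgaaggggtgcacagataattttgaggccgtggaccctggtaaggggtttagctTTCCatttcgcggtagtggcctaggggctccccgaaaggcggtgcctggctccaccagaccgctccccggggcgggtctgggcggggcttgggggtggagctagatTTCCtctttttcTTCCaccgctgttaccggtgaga
Vegfb: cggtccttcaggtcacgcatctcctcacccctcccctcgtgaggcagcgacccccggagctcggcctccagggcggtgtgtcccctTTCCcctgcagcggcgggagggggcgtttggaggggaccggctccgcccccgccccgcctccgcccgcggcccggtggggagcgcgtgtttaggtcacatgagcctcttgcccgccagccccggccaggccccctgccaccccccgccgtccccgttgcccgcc
Counting both strands, GGAA occurred 4 times before Kdr, 4 times before Flt1, 6 times before Vegfa and once before Vegfb. The median over 32851 such windows was 3, and 93.4% of them held at least 1 match. The longer GGAAGT, which contains GGAA, occurred once before Kdr and once before Flt1 and is found in 19.7% of the windows. CGGAA, which also contains the core, occurred once before Kdr and is found in 25.2%. The ligand gene whose window held the most cores, Vegfa, had neither of the longer matches. A match is a run of letters and says nothing of binding. The other receptor and co-receptor genes, which also rose with doxycycline at day 2.5, held GGAA 2 times (Flt4), 4 times (Nrp1) and 1 time (Nrp2) with neither longer match. Vegfc had 1 GGAA and Pgf 0, and a further start annotated for Vegfa, inside the gene, had 2, again with neither longer match. The windows of Flt4, Nrp1 and Pgf lie inside the gene as annotated in GENCODE and are not shown, and those of Nrp2 and Vegfc were left out to keep the set small.

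Library totals ran from 18074070 to 36068329 counts, and 14548 genes passed a filter on low counts, all 9 VEGF genes among them. Levels are in CPM, the counts of a gene per 1000000 counts of the scaled library, and each test used edgeR's quasi-likelihood fit to all 10 libraries and adjusted p over all of these genes by Benjamini-Hochberg. Etv2 read 507 and 403 CPM in treated against 15.8 and 18.1 CPM in untreated libraries at day 2. At day 2.5 it read 323 and 303 CPM in Flk1-positive, 272 and 255 CPM in treated and 6.57 and 7.5 CPM in untreated libraries. The induced and the endogenous copy share this symbol. The summed level of 12 endothelial markers was 968 to 1038 CPM in Flk1-positive, 381 to 387 CPM in treated and 35 to 36.1 CPM in untreated libraries at day 2.5, and 87.8 to 103 against 50.3 to 56.7 CPM at day 2. The endothelial marker Pecam1 did not follow the sum, at 5.29 and 5.51 CPM in Flk1-positive, 7.06 and 9.65 CPM in treated and 6.18 and 4.48 CPM in untreated libraries at day 2.5. The 10 blood markers summed to 30.3 to 30.9 CPM in Flk1-positive, 10.4 to 10.8 CPM in treated and 3.61 to 5.64 CPM in untreated libraries of day 2.5, so they too were highest in the sorted cells. Among them Gata1, a regulator of red cell genes, read 1.98 and 2.17 CPM in Flk1-positive, 1.26 and 0.809 CPM in treated and 0.131 and 0.29 CPM in untreated libraries, while the globins Hba-x, Hbb-bh1 and Hbb-y and the leukocyte gene Ptprc were at 0 in the Flk1-positive and treated libraries of that day. The sum of 12 extraembryonic endoderm markers was also highest in Flk1-positive libraries, at 336 to 339 CPM, against 181 to 194 CPM in treated and 113 to 121 CPM in untreated libraries. The single markers did not follow that sum as a set. Of the 9 tested in Flk1-positive against treated cells, 3 were higher and 2 lower, with a median log2 fold change of -0.31. Over all genes tested, 20.5% were higher and 21.3% lower. The 10 primitive streak markers summed to 820 to 863 CPM in Flk1-positive, 884 to 925 CPM in treated and 2844 to 3231 CPM in untreated libraries, and the part of these cell types in the VEGF results was not tested. The 2 treated libraries of day 2 stood furthest apart (chi-square of 32.0 per gene, 3.33 to 9.65 in the other pairs), and their difference followed exon length across genes (Spearman rho -0.454). With GC content, rho was 0.317 for that pair and 0.368 for the Flk1-positive pair. In bulk RNA, fewer cells of a type and less RNA per cell cannot be told apart.

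The receptors and co-receptors were higher after induction and the ligands mostly were not. At day 2.5, 6 of the 9 genes rose with doxycycline, namely all 3 receptors, both co-receptors and the ligand Pgf, and 0 fell, where 16.1% of all genes tested were called higher and 13.8% lower. At day 2, 2 of the 9 rose, the receptors Kdr and Flt4, and 1, the ligand Vegfa, fell, where 3.11% of genes were called higher and 1.56% lower. In Flk1-positive against treated cells of day 2.5, 5 of the 8 genes tested rose, namely Flt1, Flt4, Nrp1, Nrp2 and Vegfa, and Vegfb fell, where 20.5% of genes were called higher and 21.3% lower. The count of 2 at day 2 became 5 without treated replicate 1 of that day, when Flt1, Nrp1 and Nrp2 were called too, and the count of 1 lower gene became 0 without untreated replicate 2. At day 2.5, 1 gene, Vegfa, was called lower when either treated library of day 2 was left out.

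**Figure D1:**
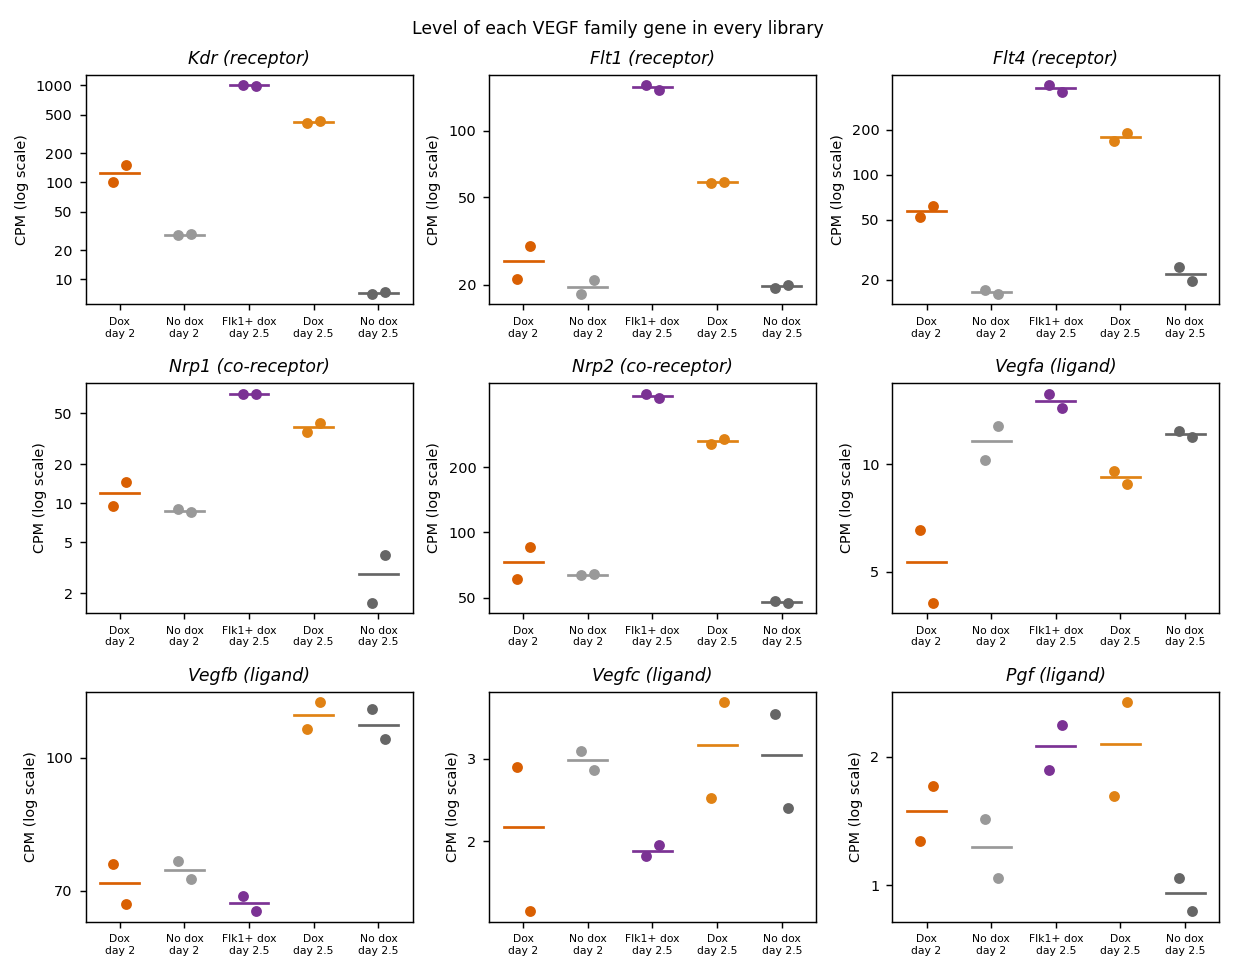
Level of each VEGF gene in CPM on a log axis, with 1 point per library, a line at the mean of each group and the 5 groups side by side. Kdr stands between 986 and 1008 CPM in the Flk1-positive libraries and between 7.05 and 7.42 CPM in the untreated libraries of day 2.5, while the points of Vegfc stay between 1.42 and 3.96 CPM in all groups.

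Kdr (ENSMUSG00000062960, chr5:75932827-75978458, minus strand) read 99.6 and 151 CPM in treated libraries of day 2, against 28.5 and 29.1 CPM in untreated ones. At day 2.5 it read 405 and 433 CPM in treated libraries, against 7.05 and 7.42 CPM in untreated ones. The groups did not overlap on either day, and the treated libraries were the higher ones. The log2 fold change with doxycycline was 2.12 ± 0.15 (SE) at day 2 (adjusted p = 4.22e-07) and 5.85 ± 0.18 at day 2.5 (adjusted p = 3.16e-12), which are 4.35-fold and 57.9-fold differences. Both sides moved between the days: treated libraries were higher at the later day by 1.74 ± 0.14 on the log2 scale (adjusted p = 2.89e-07), and the level in untreated libraries fell by 1.99 on the same scale (SE 0.17, adjusted p = 7.99e-06). The effect of doxycycline was thus larger at day 2.5 by 3.73 ± 0.22 (adjusted p = 6.20e-08). Flk1-positive libraries, sorted on the product of this gene, read 1008 and 986 CPM, so the treated libraries of that day stood at 42% of the sorted level and the untreated ones at 0.725%.

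Flt1 (ENSMUSG00000029648, chr5:147561604-147726011, minus strand) encodes both the membrane receptor and a soluble form, which gene counts do not separate. It read 161 and 153 CPM in Flk1-positive, 58.1 and 58.8 CPM in treated and 19.3 and 20.1 CPM in untreated libraries of day 2.5. The 3 groups were well apart, and the spread within each was small. Flt1 rose with doxycycline by 1.57 ± 0.14 (adjusted p = 3.71e-07), and was higher again by 1.43 ± 0.13 in Flk1-positive than in treated cells (adjusted p = 7.35e-07). At day 2 it read 21.2 and 30 CPM in treated and 18.2 and 21 CPM in untreated libraries, so that the ranges only just failed to meet. That difference of 0.39 (95% interval 0.09 to 0.69) missed the threshold (adjusted p = 0.153), and it was called without treated replicate 1 (adjusted p = 4.52e-04) and after trends on exon length and GC content were taken out (adjusted p = 0.00697). Untreated libraries hardly moved between the days, by 0.01 with an interval of -0.29 to 0.31.

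Flt4 (ENSMUSG00000020357, chr11:49609263-49652739, plus strand), known later in development for lymphatic endothelium, read 52.2 and 62.2 CPM in treated and 17.1 and 16 CPM in untreated libraries of day 2. It read 398 and 360 CPM in Flk1-positive, 169 and 190 CPM in treated and 24.4 and 19.5 CPM in untreated libraries of day 2.5. No groups compared overlapped. Flt4 rose with doxycycline by 1.78 ± 0.13 at day 2 (adjusted p = 4.23e-07) and by 3.03 ± 0.13 at day 2.5 (adjusted p = 8.71e-11), and was higher by 1.08 ± 0.11 in Flk1-positive than in treated cells (adjusted p = 3.63e-06). Of the 3 receptors it was the one whose untreated level was also higher at day 2.5 than at day 2, by 0.40 ± 0.13 (adjusted p = 0.0441). That last call was lost when any of the 8 libraries other than the treated ones of day 2 was left out, with adjusted p from 0.0509 without untreated day 2.5 replicate 2 to 0.329 without replicate 1 of that group.

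Nrp1 (ENSMUSG00000025810, chr8:128358604-128503363, plus strand) read 70.8 and 71 CPM in Flk1-positive, 35.9 and 42.1 CPM in treated and 1.7 and 3.98 CPM in untreated libraries of day 2.5. The untreated libraries, the low ones, differed by more than the smaller of their values, on 39 and 96 counts. Nrp1 rose with doxycycline by 3.77 ± 0.27 (adjusted p = 1.22e-07), and the size depended on that pair: it was 3.29 without untreated replicate 1 and 4.52 without untreated replicate 2. It was higher by 0.86 ± 0.21 in Flk1-positive than in treated cells (adjusted p = 0.00529), a call that was lost without treated replicate 1 (adjusted p = 0.0599) and with DESeq2 (adjusted p = 0.0565). At day 2 the levels were 9.58 and 14.7 CPM in treated and 9.01 and 8.51 CPM in untreated libraries, and the difference of 0.47 had an interval of -0.07 to 1.01 (adjusted p = 0.385). It was called without treated replicate 1 (adjusted p = 0.0304). Like Kdr, Nrp1 fell in untreated embryoid bodies between the days, by 1.62 on the log2 scale (SE 0.29, adjusted p = 0.00226), or by 1.14 and 2.37 without untreated day 2.5 replicate 1 and replicate 2.

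Nrp2 (ENSMUSG00000025969, chr1:62703285-62818695, plus strand) read 436 and 415 CPM in Flk1-positive, 255 and 270 CPM in treated and 48.3 and 47.5 CPM in untreated libraries of day 2.5. These groups were far apart beside their spread. Nrp2 rose by 2.45 ± 0.13 with doxycycline (adjusted p = 8.71e-10) and was higher by 0.70 ± 0.12 in Flk1-positive than in treated cells (adjusted p = 2.61e-04). At day 2 the treated libraries, at 61 and 85.6 CPM, stood on either side of the untreated ones at 63.8 and 64 CPM. The difference of 0.20 had an interval of -0.06 to 0.46 (adjusted p = 0.463), and was called without treated replicate 1 (adjusted p = 9.08e-04) and with trends on length and GC content removed (adjusted p = 0.0357). Between the days it fell by 0.41 in untreated embryoid bodies (adjusted p = 0.029), a call that was lost when any library of day 2.5 other than treated replicate 2, or either untreated library of day 2, was left out (adjusted p from 0.0606 without Flk1-positive replicate 1 to 0.171 without untreated day 2.5 replicate 2).

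**Figure D2:**
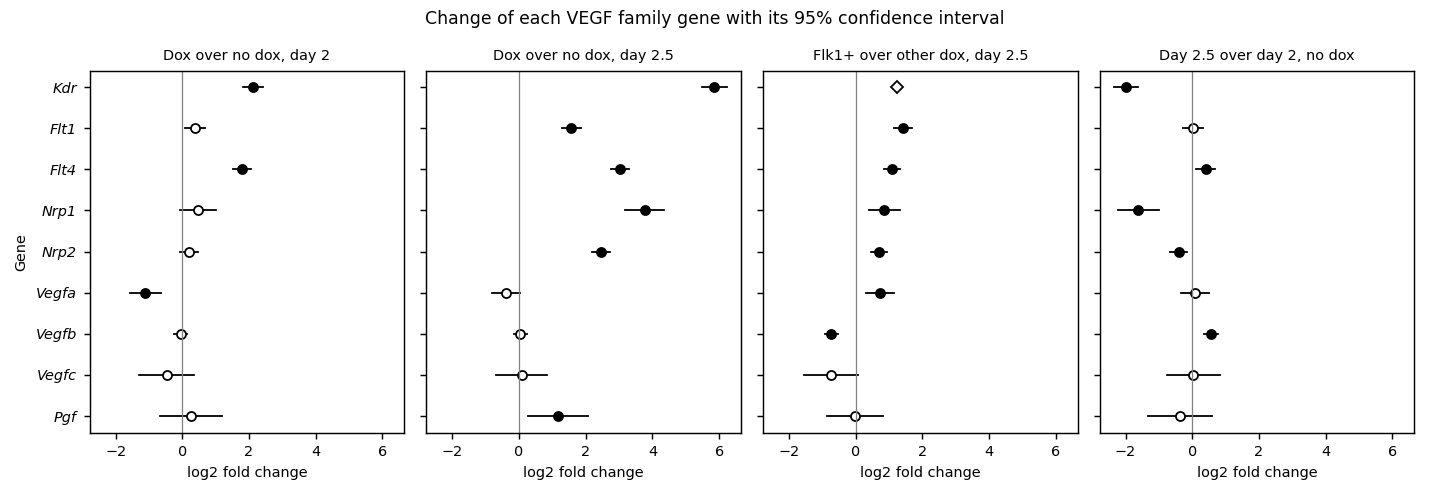
Log2 fold change of each VEGF gene with doxycycline at day 2 and at day 2.5, in Flk1-positive against treated cells and from day 2.5 over day 2 in untreated embryoid bodies, with bars for the 95% interval, filled points for adjusted p under 0.05 and an open diamond for the untested Kdr. Receptors and co-receptors lie to the right of 0 with doxycycline at day 2.5, up to 5.85 for Kdr, while Kdr lies at -1.99 in the untreated panel.

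Vegfa (ENSMUSG00000023951, chr17:46016993-46032369, minus strand), the main ligand of Kdr, read 6.56 and 4.1 CPM in treated and 10.3 and 12.8 CPM in untreated libraries of day 2. It read 15.8 and 14.4 CPM in Flk1-positive, 9.59 and 8.81 CPM in treated and 12.4 and 11.9 CPM in untreated libraries of day 2.5. Treated embryoid bodies thus held the lowest level on either day, and the sorted cells the highest. Vegfa fell with doxycycline at day 2 by 1.11 on the log2 scale (SE 0.21, adjusted p = 0.0059), a call that was lost without untreated replicate 2 (adjusted p = 0.0979) or with only these 4 libraries in the fit (adjusted p = 0.147). The difference at day 2.5 was -0.40 (interval -0.82 to 0.02, adjusted p = 0.141), and it was called without treated day 2 replicate 1 (adjusted p = 0.0457) or replicate 2 (adjusted p = 0.0446). Whether the effect of doxycycline on Vegfa differed between the days was tested too: the difference of 0.71 had an interval of 0.09 to 1.32 (adjusted p = 0.131), and was called without treated day 2 replicate 1 (adjusted p = 0.00705). Vegfa was higher by 0.72 ± 0.20 in Flk1-positive than in treated cells (adjusted p = 0.00859), a call that was lost without treated replicate 2 (adjusted p = 0.0733) or Flk1-positive replicate 1 (adjusted p = 0.067). Against untreated cells of that day the Flk1-positive difference was 0.31 with an interval of -0.10 to 0.73 (adjusted p = 0.189).

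Vegfb (ENSMUSG00000024962, chr19:6982473-6987651, minus strand), a ligand of Flt1, read 75.3 and 67.6 CPM in treated and 75.9 and 72.3 CPM in untreated libraries of day 2. It read 69 and 66.3 CPM in Flk1-positive, 108 and 116 CPM in treated and 114 and 105 CPM in untreated libraries of day 2.5. Treated and untreated libraries overlapped on each day, and the sorted cells were the low group at day 2.5. The doxycycline difference was -0.05 at day 2 (interval -0.26 to 0.15, adjusted p = 0.85) and 0.03 at day 2.5 (interval -0.16 to 0.23, adjusted p = 0.815). Vegfb was lower in Flk1-positive than in treated cells, with a log2 fold change of -0.73 ± 0.09 (adjusted p = 2.44e-05). It was also lower than in untreated cells, with -0.69 ± 0.09 (adjusted p = 1.72e-05). The size depended on the processing, from -0.78 to -0.47 against treated and from -0.76 to -0.39 against untreated cells. The ends -0.47 and -0.39 lie outside the 95% intervals with all libraries, -0.93 to -0.53 and -0.89 to -0.49. Between the days Vegfb rose by 0.65 ± 0.09 in treated (adjusted p = 6.12e-05) and by 0.56 ± 0.09 in untreated embryoid bodies (adjusted p = 0.00122). The difference of these, 0.09, had an interval of -0.20 to 0.37.

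Vegfc (ENSMUSG00000031520, chr8:54077606-54187096, plus strand), the ligand of Flt4, read between 1.42 and 3.96 CPM in all 10 libraries. At day 2.5 it read 1.86 and 1.96 CPM in Flk1-positive, 2.47 and 3.96 CPM in treated and 3.74 and 2.36 CPM in untreated libraries, on 37 to 137 counts. The treated and untreated ranges overlapped, and the sorted pair lay under both. None of the 7 comparisons of Vegfc passed the threshold in the fit to all libraries; the difference with doxycycline at day 2.5 was 0.08 (interval -0.70 to 0.85) and that of Flk1-positive against treated cells was -0.75 (interval -1.56 to 0.06, adjusted p = 0.128). Without treated day 2 replicate 1, its increase with day in treated embryoid bodies was called (1.18, adjusted p = 0.0385), against 0.58 with all libraries. At these depths a change of up to 0.85 on the log2 scale with doxycycline at day 2.5 lies within the interval.

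Pgf (ENSMUSG00000004791, chr12:85166635-85177790, minus strand), placental growth factor, read 1.86 and 2.38 CPM in Flk1-positive, 1.62 and 2.69 CPM in treated and 1.04 and 0.87 CPM in untreated libraries of day 2.5, on 21 to 93 counts. The untreated pair was the low one and the other groups overlapped each other. Its rise with doxycycline, 1.16 ± 0.42, was the call nearest to the threshold (adjusted p = 0.0478). It was lost in 12 of the alternatives, with adjusted p from 0.0511 with other size factors to 0.34 without treated replicate 2, and among them when any day 2.5 library other than treated replicate 1 or either untreated library of day 2 was left out. The rise in Flk1-positive against untreated cells, 1.14 ± 0.43 (adjusted p = 0.0352), was lost when any of the 4 libraries compared was left out (adjusted p from 0.0599 without Flk1-positive replicate 1 to 0.172 without its replicate 2). A further ligand of Flt4, Vegfd, is listed under its older symbol Figf and is mentioned after its values were seen. It read 5.74 and 7.84 CPM in Flk1-positive, 3.38 and 3.99 CPM in treated and 1.96 and 1.24 CPM in untreated libraries of day 2.5, and rose by 1.20 ± 0.35 with doxycycline (adjusted p = 0.0167). It was higher in Flk1-positive than in treated cells (0.88 ± 0.32, adjusted p = 0.0373) and than in untreated cells (2.08 ± 0.35, adjusted p = 1.32e-04). With day it rose in treated libraries (1.19 ± 0.35, adjusted p = 0.0124). Vegfd is not part of the counts of VEGF genes or of the ligand sum, but it is in the counts of signalling genes below.

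Flk1-positive cells were also set against untreated cells of day 2.5. Of the 8 genes tested, 5 rose, namely Flt1 (7.98-fold), Flt4 (17.3-fold), Nrp1 (24.8-fold), Nrp2 (8.88-fold) and Pgf (2.2-fold), and Vegfb fell, where 28.6% of all genes tested were called higher and 26.6% lower. On the log2 scale these are 4.11 ± 0.13 for Flt4 (adjusted p = 1.11e-12) and 4.63 ± 0.27 for Nrp1 (adjusted p = 5.43e-09), the value for Nrp1 being 4.15 without untreated replicate 1 and 5.38 without replicate 2. Kdr, on which the cells were sorted, differed by 7.11. The 3 day 2.5 comparisons share libraries, so their values for a gene are not independent of each other. In percent of the Flk1-positive level, treated embryoid bodies held 37.2% of Flt1, 47.4% of Flt4, 55% of Nrp1 and 61.7% of Nrp2, beside 84.1% of Etv2. For the ligands the values were 60.9% of Vegfa, 102% of Pgf, 166% of Vegfb and 168% of Vegfc.

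Between day 2 and day 2.5 the 9 genes behaved differently with and without doxycycline. In treated embryoid bodies 7 of 9 rose, namely the 3 receptors, both co-receptors, Vegfa and Vegfb, and 0 fell, where 22.9% of all genes tested rose and 23.1% fell. Their log2 fold changes were 1.19 ± 0.13 for Flt1, 1.65 ± 0.12 for Flt4, 1.68 ± 0.23 for Nrp1 and 1.84 ± 0.12 for Nrp2, with Vegfa at 0.78 ± 0.21 (adjusted p = 0.00681). The call of Vegfa was lost without treated day 2 replicate 2 (adjusted p = 0.06) and with only the groups compared (adjusted p = 0.0502). In untreated embryoid bodies Flt4 and Vegfb rose and Kdr, Nrp1 and Nrp2 fell, where 9.22% of all genes tested rose and 10.3% fell. Etv2 was lower at day 2.5 than at day 2 in treated libraries, by 0.79 on the log2 scale (SE 0.11, adjusted p = 4.05e-05), while the receptors were higher there. In untreated libraries Etv2 was lower at day 2.5 as well, by 1.26 (SE 0.14, adjusted p = 7.28e-05). In the test of the difference between the days, the effect of doxycycline was larger at day 2.5 for 5 of the 9 genes, where 6.87% of genes tested were called higher and 5.24% lower. These 5 were Kdr, Flt1, Flt4, Nrp1 and Nrp2, the receptors and co-receptors, and no ligand passed that test.

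The order of the groups by mean level was the same for Kdr and Nrp1: Flk1-positive, treated day 2.5, treated day 2, untreated day 2, untreated day 2.5, with no overlap between neighbours. Flt1 and Flt4 had the untreated groups of the last places the other way round, and those of Flt1 overlapped, with means of 19.7 CPM at day 2.5 and 19.6 CPM at day 2. For Nrp2 the treated and untreated groups of day 2 overlapped, at 73.3 and 63.9 CPM. Vegfa had another order, with means of 15.1 CPM in Flk1-positive, 12.2 CPM in untreated day 2.5, 11.6 CPM in untreated day 2, 9.2 CPM in treated day 2.5 and 5.33 CPM in treated day 2 libraries, where only the untreated groups overlapped. For Vegfb the groups fell into an upper pair, treated (112 CPM) and untreated (109 CPM) at day 2.5, and 3 lower groups at 67.7 to 74.1 CPM whose neighbours overlapped. All neighbours overlapped for Vegfc.

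Levels of different genes were compared per length, as CPM per kilobase of annotated exon. Summed over the 3 receptors, this level was 172 and 164 in Flk1-positive, 69.6 and 75.4 in treated and 5.17 and 4.68 in untreated libraries of day 2.5. The sum of the 4 ligands was 48.1 and 46.3 in Flk1-positive, 71.2 and 76.9 in treated and 75.7 and 69.4 in untreated libraries. At day 2.5 the receptor sum therefore spanned a wide range while the ligand sum was lowest in the sorted cells. Most of the ligand sum was Vegfb, a ligand of Flt1, and Vegfa by itself was highest in the sorted cells. At day 2 the ligand sum was 50.1 and 44.3 in treated and 51.5 and 49.6 in untreated libraries. The Flk1-positive values lie within the range of those day 2 libraries. At day 2.5 the ratio of the receptor to the ligand sum was 3.57 and 3.55 in Flk1-positive libraries. It was 0.979 and 0.98 in treated and 0.0682 and 0.0674 in untreated libraries. At day 2 it was 0.378 and 0.598 in treated against 0.128 and 0.136 in untreated libraries. The receptor sum includes Kdr, the sorting marker, which made up 64.9% and 66.5% of it in Flk1-positive libraries. The sum and ratio in those libraries thus describe the sort in part and were not tested. The ratio depends on the gene length used, and in Flk1-positive libraries its mean was 3.14 by coding length and 4.27 by the longest transcript, against 3.56 by exon length.

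**Figure D3:**
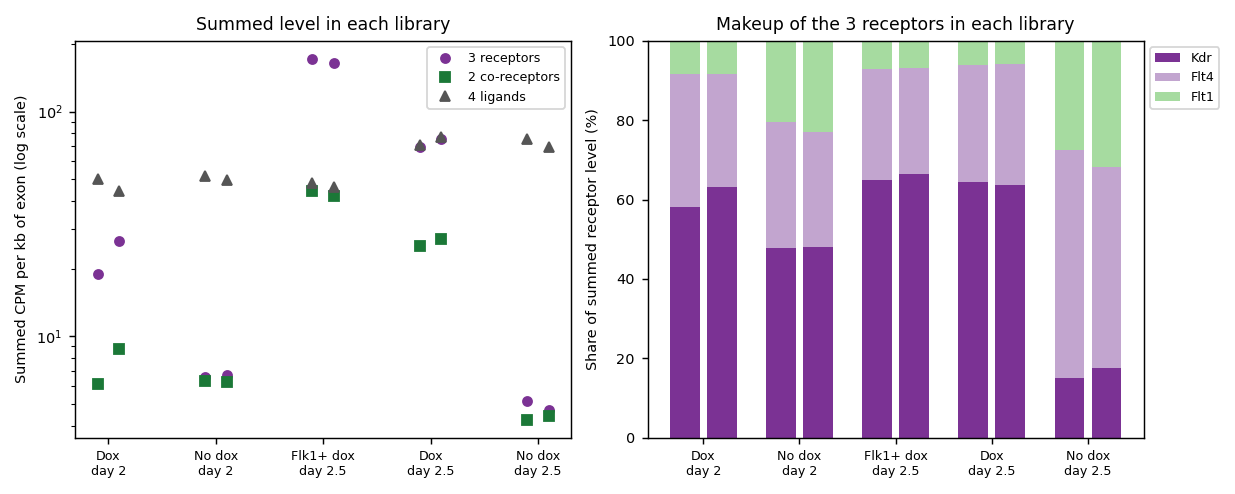
Summed level per kilobase of exon of the receptors, co-receptors and ligands on a log axis, with 1 point per library, and the share in percent of each receptor in the receptor sum, with 1 bar per library. The receptors stand at 172 and 164 in the Flk1-positive libraries and at 5.17 and 4.68 in the untreated libraries of day 2.5, where the share of Kdr is 15.1% and 17.6%. The receptor sum includes Kdr, the sorting marker, so its Flk1-positive values describe the sort in part.

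The make-up of the receptors changed as well. Per length, Kdr made up 58.2% and 63.1% of the receptor sum in treated and 47.9% and 48% in untreated libraries of day 2. At day 2.5 its share was 64.9% and 66.5% in Flk1-positive, 64.4% and 63.6% in treated and 15.1% and 17.6% in untreated libraries. In the untreated libraries of day 2.5 Flt4 held 57.3% and 50.6% and Flt1 27.6% and 31.9%. Which of these led depends on the length used: by coding length Flt4 held 48% and 41.3% and Flt1 37.9% and 42.7%. Kdr stood above Flt1 per length by a ratio of 10.4 and 11 in treated libraries of day 2.5, and of 0.547 and 0.551 in untreated ones, where Flt1 was thus the higher. Among the ligands Vegfb held 89.2% to 95.2% of the sum in every library. The mean level per length of Vegfa was 3.53 ± 0.232 in Flk1-positive, 2.15 ± 0.128 in treated and 2.84 ± 0.091 in untreated libraries of day 2.5 (SD, n = 2 each). Nrp2 exceeded Nrp1 in all 10 libraries, by a ratio of 4.81 to 6.21 in 8 of them and of 23.5 and 9.87 in the untreated libraries of day 2.5.

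Genes of VEGF receptor signalling, most of which act below the receptors, were counted against all genes tested. The list also holds the ligand Vegfd, which was among its higher genes with doxycycline at day 2.5 and in Flk1-positive against treated cells. Of 36 signalling genes, such as kinases, adaptors and small GTPases, 34 were tested: 4 rose and 0 fell with doxycycline at day 2, and 15 rose and 4 fell at day 2.5, with medians of 0.04 and 0.22 on the log2 scale against 0.00 over all genes. Over all genes tested, 3.11% rose and 1.56% fell at day 2 and 16.1% rose and 13.8% fell at day 2.5, so the share that fell was near or under that of all genes. Nfatc1, a transcription factor downstream of calcineurin, averaged 45.2 ± 1.08 CPM in treated and 9.65 ± 0.357 CPM in untreated libraries of day 2.5 (SD, n = 2 each), a rise of 2.23 ± 0.16 (adjusted p = 3.33e-08). The Src-family kinase Yes1 rose by 1.72 ± 0.11 and Fyn by 0.95 ± 0.09 at that day. Pik3r1, a regulatory subunit of PI3 kinase, rose by 1.11 ± 0.13 at day 2 (adjusted p = 7.15e-05). In Flk1-positive against treated cells 12 rose and 6 fell, with a median of 0.17, where 20.5% of all genes rose and 21.3%, a share near that of the list, fell. Nos3, the endothelial nitric oxide synthase, averaged 36 ± 5.38 CPM in Flk1-positive and 8.2 ± 0.49 CPM in treated cells, a difference of 2.13 ± 0.26 (adjusted p = 1.30e-05). The count of 12 became 6 without treated day 2.5 replicate 2 or Flk1-positive replicate 1, and that of 6 became 3 without treated replicate 2 or Flk1-positive replicate 2. The 4 lower genes of day 2.5 became 2 and 1 without treated replicate 1 and 2, and 1 and 2 without untreated replicate 1 and 2, and the 0 of day 2 became 1 and 3 without treated replicate 1 and 2.

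Among 20 partners of the receptors and proteins of their transport, 9 rose and 2 fell with doxycycline at day 2.5, with a median of 0.27, where 16.1% of all genes rose and 13.8%, a share near that of the list, fell. Cdh5, the endothelial cadherin that associates with Kdr and also one of the endothelial markers above, averaged 29.4 ± 2.52 CPM in treated and 0.168 ± 0.114 CPM in untreated libraries (SD, n = 2 each), a rise of 7.40 ± 0.29 (adjusted p = 4.80e-11). The endocytic adaptor Dab2 rose by 0.88 ± 0.14 and the integrin Itgb3 by 2.46 ± 0.39. In Flk1-positive against treated cells the balance was the other way, with 1 higher and 8 lower and a median of -0.24, where 20.5% of all genes were higher and 21.3% lower. The gene that was higher was Ptprb, an endothelial phosphatase that acts on Kdr and Tek, at 14.6 ± 0.452 CPM in Flk1-positive and 2.04 ± 1.25 CPM in treated cells (2.84 ± 0.44, adjusted p = 1.35e-04). The endosomal GTPase Rab7 was lower, at -0.63 ± 0.10, and so was the phosphatase Ptprj, at -1.14 ± 0.17. The 8 became 5 without untreated day 2 replicate 2, treated day 2.5 replicate 2 or Flk1-positive replicate 1, and 4 without Flk1-positive replicate 2, while the 2 lower genes of the doxycycline comparison became 1 without untreated day 2.5 replicate 1. At day 2 the counts were 1 higher and 1 lower, where 3.11% and 1.56% of all genes were, and they became 0 and 0 without untreated replicate 2. The 1 higher gene became 0 without untreated replicate 1 and 2 without treated replicate 1, and the 1 lower gene became 2 and 4 without treated replicate 1 and 2.

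Genes that VEGF induces in endothelial cells, many of which answer to other growth factors too, were counted next. Of 16 listed, 12 were tested: 5 rose and 1 fell with doxycycline at day 2, and 3 rose and 5 fell at day 2.5, with medians of 0.43 and -0.32. Over all genes 3.11% rose and 1.56% fell at day 2, and 16.1% and 13.8% at day 2.5. Dusp6, a phosphatase of ERK, averaged 653 ± 32.3 CPM in treated and 240 ± 8.46 CPM in untreated libraries of day 2 (SD, n = 2 each), a rise of 1.44 ± 0.09 (adjusted p = 4.93e-08). Spry4, an inhibitor of receptor kinase signalling, rose by 0.89 ± 0.12 at day 2 (adjusted p = 2.16e-04) and was lower at day 2.5, with a log2 fold change of -1.41 ± 0.12 (adjusted p = 3.95e-07). For Spry4 the difference between the days was itself past the threshold, at -2.30 ± 0.17 (adjusted p = 5.13e-07), and so it was for Dusp6, at -1.78 ± 0.12 (adjusted p = 2.01e-07). Dusp4 was instead higher with doxycycline on both days, by 0.95 ± 0.10 and 0.60 ± 0.10. It was higher again in Flk1-positive than in treated cells, by 0.78 ± 0.09. The immediate early gene Egr1 was lower with doxycycline on both days, by log2 fold changes of -1.25 ± 0.16 and -2.53 ± 0.16. It was lower again in Flk1-positive than in treated cells (-1.43 ± 0.19), where the related Egr2 was higher, at 20.7 ± 1.98 CPM in Flk1-positive and 3.99 ± 0.0818 CPM in treated cells (2.38 ± 0.25). In that comparison 4 genes of the list rose and 3 fell, where 20.5% of all genes rose and 21.3% fell, so the share that fell was near that of all genes. The 4 became 2 without treated replicate 2 or Flk1-positive replicate 1. The 5 lower genes at day 2.5 became 3 without treated replicate 2 or untreated replicate 1.

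Hypoxia is a known inducer of Vegfa, and 20 genes of the hypoxia response were all tested. In Flk1-positive against treated cells 2 rose and 12 fell, with a median of -0.52, where 20.5% of all genes rose and 21.3% fell. Vegfa was higher in that comparison and lower with doxycycline at day 2, and a part of hypoxia in either was not tested. Among the lower genes, Pdk1, a kinase that limits pyruvate oxidation, averaged 167 ± 2.2 CPM in Flk1-positive and 345 ± 5.38 CPM in treated cells (-1.05 ± 0.09, adjusted p = 2.80e-07). Bnip3 had a log2 fold change of -1.51 ± 0.15, Ndrg1 of -2.22 ± 0.20 and the lactate dehydrogenase Ldha of -0.60 ± 0.09. With doxycycline 3 rose and 5 fell at day 2.5, where 16.1% of all genes rose, a share near that of the list, and 13.8% fell. They included Pdk1 with a rise of 1.36 ± 0.09 and the glucose transporter Slc2a1 with -0.99 ± 0.10. At day 2, 0 rose and 3 fell, with a median of -0.11, where 3.11% of all genes rose and 1.56% fell. The lower ones included Slc2a1, at 130 ± 8.17 CPM in treated and 229 ± 4.38 CPM in untreated libraries (-0.82 ± 0.10, adjusted p = 1.39e-04). The 3 became 5 without treated day 2 replicate 1 or 2, and the 0 became 2 and 1. The 3 higher genes of day 2.5 became 5 without either treated library of day 2, and the 2 higher ones in Flk1-positive cells became 1 without treated day 2.5 replicate 1 or either Flk1-positive library.

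Neuropilins also bind class 3 semaphorins and act with plexins, of which 11 of 12 listed genes were tested. With doxycycline 2 rose and 2 fell at day 2, where 3.11% of all genes rose and 1.56% fell, and 4 rose and 3 fell at day 2.5, where 16.1% rose and 13.8% fell. Plxnd1, an endothelial plexin, averaged 245 ± 10.7 CPM in treated and 11.6 ± 1.84 CPM in untreated libraries of day 2.5 (SD, n = 2 each), a rise of 4.40 ± 0.14 (adjusted p = 3.16e-12), after a rise of 1.41 ± 0.13 at day 2. Sema3f, a ligand of Nrp2, rose by 1.72 ± 0.13 at day 2 and 2.03 ± 0.13 at day 2.5 and was higher again in Flk1-positive than in treated cells (1.43 ± 0.12, adjusted p = 2.78e-07). Sema3e, a ligand of Plxnd1, was lower with doxycycline at day 2.5, at 14.9 ± 1.5 CPM in treated and 43.1 ± 0.138 CPM in untreated libraries (-1.53 ± 0.16), and lower in Flk1-positive than in treated cells (-1.57 ± 0.18). In that last comparison 4 rose and 2 fell, where 20.5% of all genes rose and 21.3% fell, so the share that fell was near that of all genes. The 2 lower genes of day 2 became 0 without either untreated library of that day.

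Receptor kinases related to the VEGF receptors and the PDGF ligands were counted in the same way, with 9 of 10 tested. Pdgfra and Kit lie next to Kdr on mouse chromosome 5. Pdgfra read 3.76 and 1.54 CPM in Flk1-positive, 6.84 and 5.2 CPM in treated and 27.7 and 33.4 CPM in untreated libraries of day 2.5, so it ran opposite to Kdr, with a log2 fold change with doxycycline of -2.34 ± 0.24 (adjusted p = 2.95e-06). Kit read 29.5 and 26.5 CPM in Flk1-positive, 37.3 and 35.2 CPM in treated and 49.5 and 48.8 CPM in untreated libraries. With doxycycline at day 2.5, 2 genes of the list rose and 4 fell, where 16.1% of all genes rose and 13.8% fell, the higher ones being Kitl, the ligand of Kit (2.89 ± 0.26), and Pdgfb (1.59 ± 0.19). In Flk1-positive against treated cells 1 rose and 3 fell, where 20.5% of all genes rose and 21.3% fell, the higher one being Pdgfb (1.35 ± 0.17). At day 2 there were 2 in each direction, where 3.11% of all genes rose and 1.56% fell, and none of these 4 was called without untreated replicate 1. The 2 lower ones became 0 without untreated replicate 2 and 1 without any library of day 2.5. The 4 lower genes of day 2.5 became 2 without treated replicate 2, and the 3 lower ones in Flk1-positive cells became 1 without Flk1-positive replicate 2, when Pdgfra was among those lost (adjusted p = 0.0607).

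Likeness of profile was measured as the root mean square distance between centred log2 CPM values over the 10 libraries, among 11388 genes, and is a description without a test. The profile nearest to that of Flt1 was Sema5b, at a distance of 0.16, and to that of Nrp2 it was St3gal1, at 0.18, with Cd34, a surface marker of endothelial and blood precursors, at 0.22. Flt4 was nearest to Tmc8 and Hdac7, at 0.20 each. Nrp1 had Nxf3 at 0.41, Lat at 0.42 and the angiopoietin receptor Tek at 0.44. No profile was as close to Kdr, whose nearest were Arhgap31 and St8sia1, at 0.53 each. Of the ligands, Vegfa was nearest to Dusp10, at 0.22, and Vegfb to Triobp, at 0.07. Among the VEGF genes themselves Flt1 and Nrp2 were the closest pair, at 0.31, and Kdr had its nearest, Nrp1, at 1.01. The libraries share groups and depth, and genes that change little lie close to many others.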

How the data were processed

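RNA of 10 libraries in 5 groups of 2 was analysed from the raw counts per gene that the authors deposited. TopHat, HTSeq, DESeq2 and the build mm10 are named, per the submitters' processing notes, with no versions or roles; the sources used here give neither the annotation nor the strand setting, so overlapping genes cannot be told apart. Spike-in entries (92, with 0 counts) were left out of the table of 23429. In R 4.3.3, edgeR 4.0.16 kept 14548 genes (filterByExpr, minimum count 10, minimum total 15) and scaled libraries by TMM. A robust quasi-likelihood fit with 1 mean per group left 5 residual degrees of freedom (common biological coefficient of variation 0.1). It gave 7 comparisons, each adjusted by Benjamini-Hochberg over all genes, called at 0.05. The fit was also run on simulated counts with the same spread for all genes and libraries. The pairs of libraries here differ in spread, so that run does not vouch for the fit to them. CPM uses the scaled library sizes, and standard errors come from the F statistic. Exon lengths, positions and gene identifiers are from GENCODE on GRCm38, with 98% of genes matched. Libraries of a group were not identical and differed beyond sampling noise.

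The members and gene lists were chosen with earlier results of these data known. Besides all 9 VEGF genes and Etv2, up to 4 called genes per list with the smallest adjusted p in the first 3 comparisons were open to naming, together with the 3 nearest profiles of each VEGF gene among genes of at least 5 CPM in their highest group; differences between days of genes so named are given too. Alternatives were other size factors, no filter, DESeq2 1.42.0, fits to the compared groups, thinned counts, a replicate term, each library left out, other gene lengths and, chosen after seeing the data, removal of trends on length and GC content.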

Additional observations from a re-analysis of the deposited data

Results flagged for a closer look

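The effect of doxycycline was larger at day 2.5 than at day 2 for 5 VEGF genes, by a test of that difference itself (edgeR, adjusted over all genes). As log2 of the day 2.5 effect over the day 2 effect, the differences were 3.73 for Kdr (adjusted p = 6.20e-08), 3.30 for Nrp1 (adjusted p = 5.16e-05), 2.26 for Nrp2 (adjusted p = 6.27e-07), 1.25 for Flt4 (adjusted p = 2.34e-04) and 1.18 for Flt1 (adjusted p = 9.81e-04). In each of the 5 genes both treated libraries were above both untreated libraries at day 2.5, and at day 2 they were for all but Nrp2. The value for Nrp1 was 2.82 without untreated day 2.5 replicate 1 and 4.05 without replicate 2 of that group. For Kdr, Nrp1 and Nrp2 the level in untreated embryoid bodies was lower at day 2.5 than at day 2, which enters the difference.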

How the results depend on the processing

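Of 1037 recomputed log2 fold changes of the VEGF genes, 988 kept their side of the threshold, 9 were newly called and 40 lost their call. No called one changed sign, but some that were called in neither fit did. Nrp2 at day 2, for example, was 0.20 with all libraries and -0.06 without treated replicate 2 of that day. The cause of these changes was not tested. At day 2 the counts over all genes, 453 higher and 227 lower, became 437 lower with no filter, 343 lower with DESeq2, 117 and 38 with only the compared groups in the fit and 713 and 430 with trends removed; VEGF genes called lower became 0 with the compared groups alone and those called higher 4 with trends removed. Of the lists at day 2, those fits to the compared groups called 2 signalling genes higher (against 4), 3 VEGF-induced genes higher (against 5), 0 partner or related kinase genes higher and 0 partner, semaphorin, plexin or related kinase genes lower. With trends removed they held 2 signalling (against 0), 2 partner (against 1) and 6 hypoxia genes (against 3) lower and 1 hypoxia gene higher (against 0), and partners called lower were also 2 with no filter or DESeq2. At day 2.5, 5 semaphorin or plexin genes were lower with no filter or the compared groups alone (against 3), and 5 hypoxia genes higher with the compared groups alone or trends removed (against 3). Untreated day 2.5 against day 2 gave 2299 higher and 2276 lower genes with the compared groups alone, against 1342 and 1494, and the difference between the days 1269 lower with trends removed, against 763. By coding length and longest transcript, the receptor over ligand ratio was 3.14 and 4.27 in Flk1-positive, 0.883 and 1.17 in treated and 0.0668 and 0.0837 in untreated day 2.5 libraries, and 0.164 by longest transcript in untreated day 2 libraries.

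Leaving out each library in turn gave, for all genes called higher and lower, 188 to 1035 and 58 to 1275 with doxycycline at day 2, 1566 to 3040 and 1032 to 2945 at day 2.5, 1909 to 3779 and 2095 to 3847 in Flk1-positive against treated, 3184 to 4751 and 3165 to 4480 against untreated, 2402 to 3808 and 2324 to 3881 with day in treated, 358 to 2266 and 322 to 2536 with day in untreated, and 559 to 2115 and 278 to 1954 for the difference between the days. VEGF genes called higher and lower ranged from 2 to 5 and 0 to 1 at day 2, 5 to 6 and 0 to 1 at day 2.5, 6 to 8 higher with day in treated, and 1 to 2 and 2 to 3 with day in untreated embryoid bodies. A group left with 1 library was assumed to vary like the others.

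The replicate numbers share only a number (correlations of pair deviations -0.0337 to 0.0979); with the replicate block, VEGF genes called higher at day 2.5 became 5 of 9, without Pgf, and partner genes called lower at day 2 became 2, against 1. Depth limits mainly Vegfc and Pgf, on 19 to 137 counts.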
